A study of Rattus norvegicus with 6 samples.

Results

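Interleukins, colony-stimulating factors, Lif and Tnf are secreted proteins by which cells of a tissue signal to each other and to immune cells. The 10 genes described here are Il1a, Il1b, Il1rn, Il18, Il6, Lif, Csf1, Csf2, Csf3 and Tnf, out of 14217 rat genes that had a probe set of their own. A probe set is a group of short array probes that together measure the RNA of a gene. All 16 probe sets that the platform annotation assigns to a member alone were taken, and the brightest by its mean over the 6 arrays stood for the gene. RNA came from mammospheres, floating spheres grown from mammary cells that are kept from attaching, and was measured on Affymetrix 3' arrays, 3 for each group. Both groups were female Sprague Dawley animals, 55 days of age when treatment began.

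The hCG group received 100 IU of recombinant human chorionic gonadotropin (hCG, the hormone of early pregnancy) each day for 21 days, and the Control group received phosphate buffered saline. Mammary glands 4 and 5 were removed 21 days after the last injection. Cells enriched for epithelium were grown for 7 days in a medium with EGF, basic FGF and heparin, so these growth factors were present in both groups; the labels list no hCG in the medium. The labels do not say whether an array holds the RNA of 1 rat, so every p-value here reflects only how these samples scatter, and that scatter may be technical. The comparison asks which of these cytokine genes differed in spheres formed weeks after the hormone had been stopped.

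Interleukin-1 alpha and beta bind the same receptor and switch on NF-kB, a transcription factor that sits in the cytoplasm until a signal degrades its inhibitor, and Il1rn encodes an antagonist that occupies that receptor without signalling. Tumour necrosis factor (Tnf) reaches NF-kB through its own receptors, and NF-kB in turn raises transcription of Il6, Csf3 and other cytokine genes. Interleukin-6 and leukaemia inhibitory factor (Lif) signal through the shared receptor subunit gp130 to STAT3, the factor that drives regression of the mammary gland after weaning, while the colony-stimulating factors support macrophages and granulocytes.

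Csf3 and Il1a fell and Tnf, by its brightest probe set, rose in spheres from hCG-treated rats. These 3 of the 9 tested cytokine genes passed limma's moderated test at an adjusted p under 0.05, which 1.82% of all 10424 tested genes passed (0.815% as lower and 1.01% as higher). Csf2 lay below the level of 2.67 under which the dimmest 40% of probe sets were left out, and was not tested. Changes of 2-fold or more were found in 4 of the 9 genes, Csf3, Il6, Lif and Il1a, all lower, against 2.32% of all tested genes in either direction. Il1a, Il1rn and Lif passed the filter through the Control group alone, since their hCG means lay under its level. The values hold no detection calls, so the folds of these genes have an uncertain size and are not support for the counts. The values of the groups did not overlap in 5 of the 9, lower in Csf3, Il1a and Il1rn and higher in Tnf and Il18, whereas 31.6% of all tested genes had no overlap (12.3% lower and 19.3% higher). Of the 9 log2 changes 6 lay below 0, with a median of -0.69, beside a median of 0.03 over all tested genes, of which 44.2% lay below 0. The cytokine genes were chosen with earlier results of these data known, so their counts beside all genes are only a description.

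Whether these calls held depended on which array was left out. The log2 changes themselves then stayed between -1.84 and -1.54 in Csf3, -1.23 and -0.96 in Il1a, and 0.82 and 1.06 in Tnf. When Control 5, Control 6, hCG 5 or hCG 7 was dropped, 0 of the 9 cytokine genes and 0 genes in all passed limma's test. At an unadjusted p under 0.05 there were then 5, 4, 5 and 6 of the 9, against 7 with all arrays, and 1950, 1931, 1649 and 1455 genes in all, against 2510 (24.1%). Without Control 7 Csf3, Il1a, Tnf and Lif were called, and without hCG 6 Csf3, Il1a and Tnf.

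**Figure D1:**
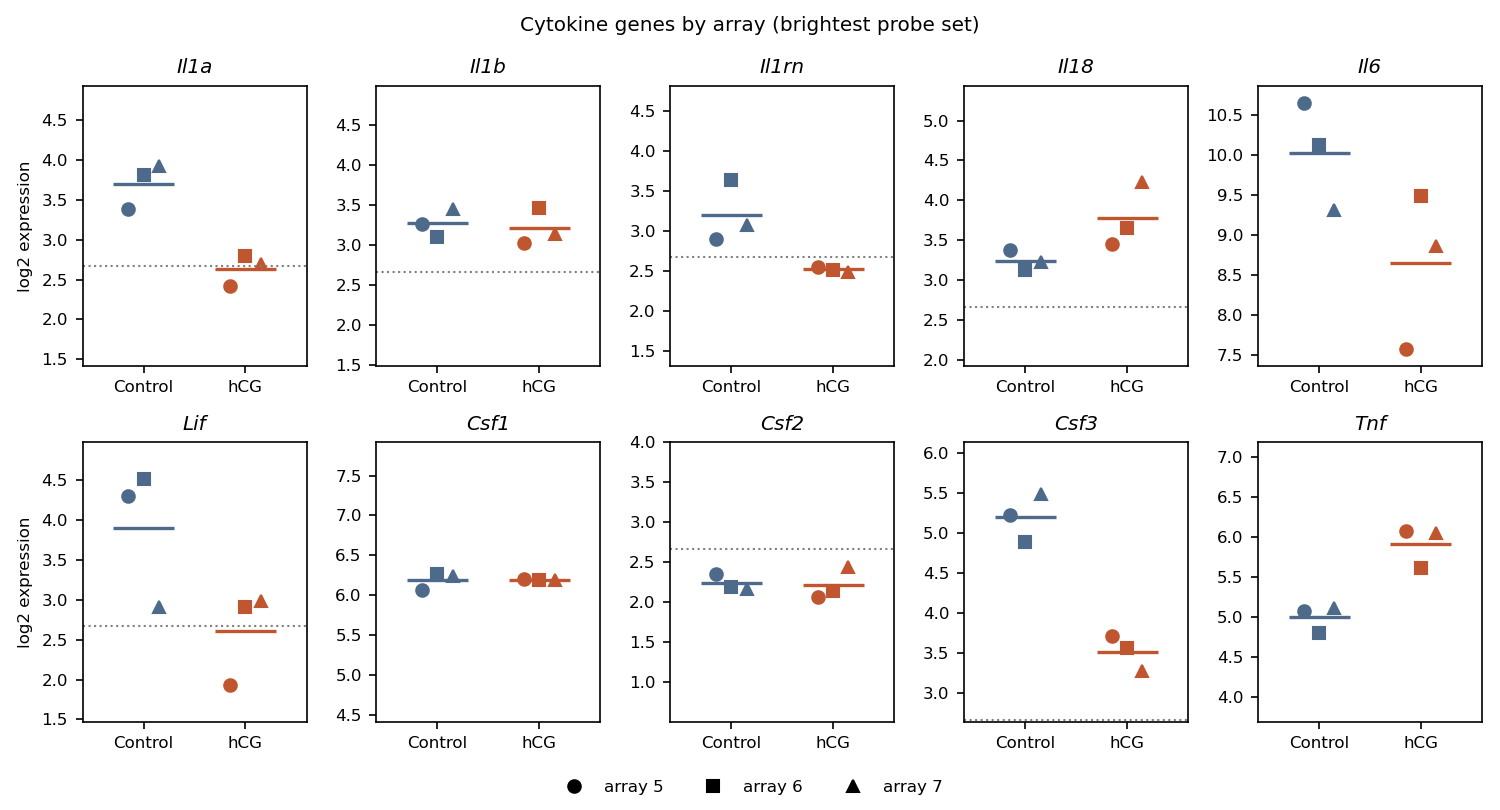
Log2 expression of each of the 10 cytokine genes on the 3 Control arrays (blue) and the 3 hCG arrays (orange), with a symbol for each array number, a line at each group mean and a dotted line at the filter level of 2.67 where it falls in the panel. The groups stand apart in Csf3, Il1a, Il1rn, Tnf and Il18, touch or cross in Il6 and Lif, and lie on each other in Il1b, Csf1 and Csf2.

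Array medians ranged from 3.44 to 3.48 (log2). The difference between the 3' and 5' probe sets of beta-actin, a sign of RNA quality, was 2.18 on Control 7 and 1.46 to 1.75 on the other arrays. Leaving out Control 7 raised the genes called from 190 to 584 and let Lif pass, and the part of RNA quality in this was not tested. Control 7 and hCG 6 stood nearest to the other group. Control 7 correlated with hCG 6 at 0.984 over tested probe sets, above its 0.980 with Control 5, and hCG 6 correlated with Control 6 at 0.984. Transcripts of bacterial genes, added to the RNA before labelling, had a mean log2 level between 5.43 and 5.71 in the Control group and between 4.32 and 4.90 in the hCG group, over 24 probe sets. This lower spike level on hCG arrays went with every change given here, and its part in them was not tested. Of the cell type markers on the array, 8 of 8 luminal, 6 of 7 basal and myoepithelial, 7 of 7 fibroblast and 6 of 8 endothelial ones were above the filter level. Of 8 lymphocyte markers on the array 0 were. Fibroblast markers had the highest mean level of these lists, 9.80 to 9.87 on Control and 9.915 to 10.07 on hCG arrays. This was so although the cells had been enriched for epithelium.

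The stretches of 250 bases before the annotated start of Il1a, Il1rn, Il6 and Tnf are shown because these genes differed most between the groups among those with an entry in the promoter table, which has none for Lif, Csf1 and Csf3. They come from RefSeq, build GRCr8, and run 5′ to 3′ in the direction of the gene. Il1a lies at chr3:136990018-136990267 on the minus strand, Il1rn at chr3:27520072-27520321 on the plus strand, Il6 at chr4:5894576-5894825 on the minus strand and Tnf at chr20:3626435-3626684 on the plus strand. Capitals mark matches, on either strand, to the AP-1 motif TGANTCA, the cAMP response element TGACGTCA, the C/EBP motif TTNNGNAA or the 10-base NF-kB consensus.
Il1a: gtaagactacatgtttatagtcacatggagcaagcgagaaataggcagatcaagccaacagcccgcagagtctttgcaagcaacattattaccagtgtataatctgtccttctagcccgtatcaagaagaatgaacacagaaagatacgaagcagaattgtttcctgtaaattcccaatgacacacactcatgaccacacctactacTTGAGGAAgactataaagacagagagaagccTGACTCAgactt
Il1rn: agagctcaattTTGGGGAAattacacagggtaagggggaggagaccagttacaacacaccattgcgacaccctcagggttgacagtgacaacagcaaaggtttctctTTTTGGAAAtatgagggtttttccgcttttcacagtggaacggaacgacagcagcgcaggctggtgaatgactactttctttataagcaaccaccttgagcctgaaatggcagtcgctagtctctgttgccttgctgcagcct
Il6: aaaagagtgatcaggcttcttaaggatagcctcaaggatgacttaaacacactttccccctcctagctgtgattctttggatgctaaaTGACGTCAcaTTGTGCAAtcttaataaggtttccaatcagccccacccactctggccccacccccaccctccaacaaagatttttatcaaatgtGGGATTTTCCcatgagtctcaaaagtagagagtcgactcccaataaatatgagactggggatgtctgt
Tnf: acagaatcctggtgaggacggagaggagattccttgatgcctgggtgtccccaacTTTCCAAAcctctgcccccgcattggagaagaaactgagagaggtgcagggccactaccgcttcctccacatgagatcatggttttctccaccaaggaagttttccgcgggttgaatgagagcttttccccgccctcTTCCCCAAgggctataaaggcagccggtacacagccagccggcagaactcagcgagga

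Upstream of Il6 stood a cAMP response element (TGACGTCA, from 162 to 155 bases before the start), a C/EBP match (TTGTGCAA, 152 to 145) and an NF-kB match (GGGATTTTCC, 68 to 59), none of which overlapped. Among the 33469 rat stretches of this length in the table, 1.59% held the cAMP response element, 6.33% the NF-kB consensus, 6.34% the AP-1 motif and 37.2% the C/EBP motif. Of the 7 cytokine genes with an entry, Il6 alone held the first 2 and Il1a alone an AP-1 match (TGACTCA, 12 to 6 bases before the start). C/EBP matches were found in 6 of the 7, the exception being Il18, and a pair of those in Il1rn overlapped each other. Such a match says only that the letters are present, and expression was the only readout here.

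Among the interleukin-1 genes Il1a fell, and its antagonist Il1rn was lower on every hCG array without passing the test. Il1a encodes a form of interleukin-1 that can act from inside or on the surface of the cell and as an alarm signal when cells die. Its log2 level was 3.38, 3.81 and 3.92 on Control 5, 6 and 7 and 2.42, 2.79 and 2.70 on hCG 5, 6 and 7. Every hCG value lay below every Control value, and the hCG mean of 2.64 ± 0.19 (SD, n = 3) lay under the filter level, against 3.70 ± 0.29 (SD, n = 3) in Control. The log2 change between the deposited values was -1.06 (SE 0.17, limma adjusted p = 0.0382, 95% interval -1.46 to -0.67), with a size that is uncertain at so low an hCG level. The call was lost without Control 5, Control 6, hCG 5 or hCG 7 (adjusted p from 0.0639 to 0.188), with changes from -1.23 to -0.96. The other probe set of Il1a was dim on all arrays, at 1.50 to 2.29, and had a change of -0.30 (SE 0.15) with overlapping groups.

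Il1rn, the receptor antagonist, stood at 2.90, 3.64 and 3.08 on the Control arrays and at 2.55, 2.52 and 2.49 on the hCG arrays. The hCG values were nearly equal to each other, all below the filter level and below the lowest Control value. The log2 change of Il1rn was -0.69 (SE 0.18, limma adjusted p = 0.0960), and it was -0.47 without Control 6, the array with the highest value.

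Il1b, the secreted and caspase-activated form of interleukin-1, had levels of 3.27, 3.10 and 3.45 in the Control group and 3.02, 3.46 and 3.15 in the hCG group. The groups of Il1b overlapped fully. Its change of -0.06 had a 95% interval from -0.40 to 0.28, so a change in these values as large as that of Il1a lay outside the interval. Il1b was dim on all arrays, not far above the filter level, so the interval may not hold for the RNA itself. The difference between the changes of Il1a and Il1b was not tested.

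Il18 encodes another cytokine of this family that is cut by caspase-1 before release and that epithelia make at rest. Its levels were 3.38, 3.13 and 3.23 on Control 5, 6 and 7 and 3.46, 3.66 and 4.24 on hCG 5, 6 and 7. All hCG values of Il18 lay above all Control values, hCG 5 by little and hCG 7 by most. The change was 0.54 (SE 0.20, limma adjusted p = 0.165), and 0.31 without hCG 7.

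Il6 and Lif, the ligands that act through gp130, had the widest spread of the 10 genes, and neither passed the test. Il6, made by epithelial, stromal and immune cells and inducible by interleukin-1 and Tnf, was at 10.65, 10.12 and 9.31 on Control 5, 6 and 7 and at 7.57, 9.49 and 8.87 on hCG 5, 6 and 7. Control 7 fell below hCG 6, so the groups overlapped, and hCG 5 was far below the rest. The mean was 10.03 ± 0.68 (SD, n = 3) in Control and 8.64 ± 0.98 (SD, n = 3) in hCG spheres, a log2 change of -1.38 (SE 0.53, 2.61-fold lower, limma adjusted p = 0.176, 95% interval -2.64 to -0.13). Dropping single arrays moved the change of Il6 to values between -1.81 (without hCG 6) and -0.85 (without hCG 5), and it was called in none of these fits.

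Lif, which keeps stem cells of several kinds from differentiating and starts STAT3 signalling in the gland at weaning, was at 4.30, 4.51 and 2.90 on the Control arrays and at 1.93, 2.90 and 2.99 on the hCG arrays. Control 5 and 6 were high, Control 7 lay at the level of hCG 6 and 7, and hCG 5 was lowest. The hCG mean of 2.61 lay under the filter level, and hCG 5 below every value of the brighter Csf2 probe set. The change of Lif, uncertain in size for that reason, was -1.29 (SE 0.47, limma adjusted p = 0.161). Without Control 7 Lif passed, at -1.79 (adjusted p = 0.0451), and without hCG 5 its change was -0.96. In Il6 as in Lif, Control 7 was the lowest of its group and hCG 5 the lowest of all 6 arrays.

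Among the colony-stimulating factors Csf3 fell, while Csf1 had nearly equal means and Csf2 was too dim to test. Csf3 encodes granulocyte colony-stimulating factor, which directs the making and release of neutrophils. Its log2 level was 5.23, 4.89 and 5.50 on Control 5, 6 and 7 and 3.71, 3.57 and 3.28 on hCG 5, 6 and 7. The groups were far apart, with more than a log2 unit between the lowest Control and the highest hCG value. Means were 5.21 ± 0.30 (SD, n = 3) and 3.52 ± 0.22 (SD, n = 3), a log2 change of -1.69 (SE 0.18, 3.22-fold lower, limma adjusted p = 0.0289, 95% interval -2.11 to -1.26). The hCG values of Csf3 were dim, at levels near those of Il1b, so the size of its change is uncertain. With 1 array left out the change lay between -1.84 and -1.54, and the call was lost without Control 5, Control 6, hCG 5 or hCG 7 (adjusted p from 0.0639 to 0.174).

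Csf1, the growth and survival factor of macrophages, had levels of 6.07, 6.26 and 6.24 in the Control group and 6.21, 6.19 and 6.19 in the hCG group. The 3 hCG values lay within the Control range. Its change was 0.01 with a 95% interval from -0.19 to 0.21. The other 3 of its 4 probe sets had changes of -0.19, -0.10 and -0.05, and in the first 2 of these the hCG values lay below all Control values (limma adjusted p over probe sets = 0.216 and 0.463). The probe sets of Csf1 thus differ in the sign of changes that are all smaller than 0.2.

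Csf2, the granulocyte-macrophage factor made mostly by activated immune cells and epithelium, ranged from 2.07 to 2.44 over all 6 arrays in its brighter probe set and from 1.88 to 2.20 in the other. Both probe sets lay below the filter level on every array, and a level this low cannot be told from absence of the RNA in these values.

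Tnf, the cytokine that starts many inflammatory responses, was measured by a pair of probe sets with unequal changes. The brighter was at 5.07, 4.80 and 5.11 on Control 5, 6 and 7 and at 6.07, 5.62 and 6.05 on hCG 5, 6 and 7. All hCG values were higher, hCG 6 least. The change of this probe set was 0.92 (SE 0.15, 1.89-fold higher, limma adjusted p = 0.0439, 95% interval 0.56 to 1.28), and the call was lost without Control 5, Control 6, hCG 5 or hCG 7 (adjusted p from 0.0965 to 0.208). This brighter probe set has no sequence accession in the annotation, which assigns it to Tnf by gene number only. The other, which the annotation ties to the reference Tnf transcript, was at 2.71, 2.55 and 2.54 in Control spheres and 2.78, 2.84 and 2.66 in hCG spheres. These values straddled the filter level and the groups overlapped. Its change was 0.16 (SE 0.09, limma p adjusted over probe sets = 0.346, 95% interval -0.05 to 0.38), and with it in place of the brighter, 2 of the 9 cytokine genes were called, both lower.

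**Figure D2:**
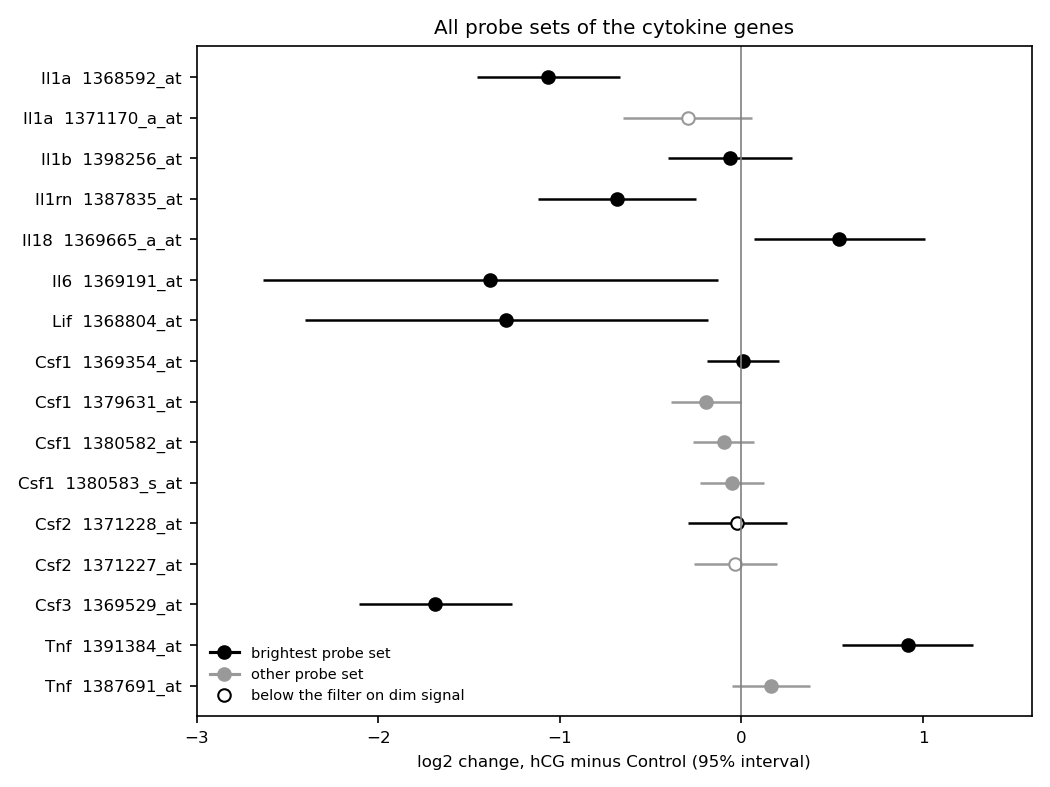
Log2 change (hCG minus Control) of all 16 probe sets, with 95% intervals from limma; black points stand for the gene, grey points are its other probe sets and open points lie below the filter. The brighter Tnf probe set sits at 0.92 and the other at 0.16; the 4 Csf1 probe sets lie within 0.2 of 0.

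**Figure D3:**
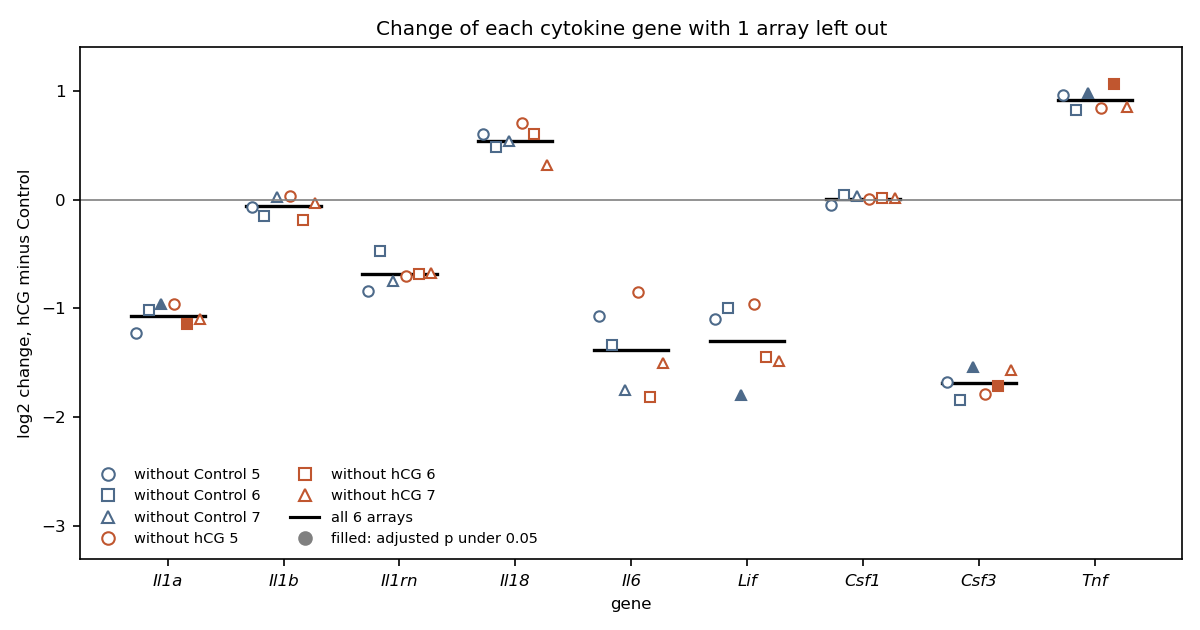
Log2 change of the 9 tested cytokine genes with all 6 arrays (black line) and with each array left out (symbols; filled where the adjusted p was under 0.05). Csf3 stays between -1.84 and -1.54, while Il6 spans -1.81 to -0.85 and Lif -1.79 to -0.96.

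Genes of the cytokines' pathways were read from the same fit in 8 lists with 123 genes, of which 81 were tested. Over all of these 1 rose and 3 fell, that is 4 of 81 beside 1.82% of all tested genes, and the median change was -0.01. The genes that passed were Casp4, Tnfrsf1b, Ptges and Lbp.

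Of the receptors and binding proteins 11 of 17 were tested, and 1 fell and 0 rose, with a median of -0.13. The gene that fell was Tnfrsf1b, the Tnf receptor found mainly on immune and endothelial cells, at 4.01, 3.83 and 4.03 in Control spheres and 3.23, 3.46 and 3.23 in hCG spheres. Its change was -0.65 (SE 0.10, limma adjusted p = 0.0382), with no overlap. Tnfrsf1a, the Tnf receptor of most cell types, had a change in the other direction of 0.36 (SE 0.11, adjusted p = 0.119), and its hCG values all lay above its Control values. Il6st, which encodes gp130, had one of 0.25 (adjusted p = 0.157). The receptor genes of Csf1 and Csf3, Csf1r and Csf3r, were on the array but below the filter level.

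Of the genes that process cytokines for release 5 of 9 were tested, all with changes above 0 and a median of 0.33, and 1 rose. This was Casp4, an inflammatory caspase that senses bacterial lipopolysaccharide inside the cell, at 5.90, 5.82 and 5.97 in Control spheres and 7.24, 6.60 and 7.00 in hCG spheres. Its change was 1.05 (SE 0.16, limma adjusted p = 0.0382). Casp1, which cuts the precursors of interleukin-1 beta and interleukin-18, had a change of 0.48 (SE 0.14, adjusted p = 0.113), with no overlap between groups.

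Components of the NF-kB route, from the adaptor Myd88 to the Rel proteins, had 0 of 13 tested genes called by limma, with 0 of them at an unadjusted p under 0.05, beside 24.1% of all tested genes. Their changes lay between -0.35 and 0.16. Tradd, an adaptor of Tnf receptors, had the smallest p of the list, with a change of -0.20 (adjusted p = 0.237), followed by Nfkb2 with -0.35 (adjusted p = 0.277).

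Among feedback and target genes of NF-kB 1 of 18 tested fell and 0 rose, with a median of -0.26, 13 below 0 and 5 above. Ptges, which makes prostaglandin E2, fell from 3.52 ± 0.49 (SD, n = 3) to 1.89 ± 0.10 (SD, n = 3), a change of -1.63 (SE 0.23, limma adjusted p = 0.0368). It passed the filter through the Control group alone, with hCG values lower than those of the brighter Csf2 probe set, so the size of its change is uncertain. Tnfaip3, which encodes the feedback inhibitor A20, had a change of 0.65 (SE 0.14, adjusted p = 0.0663), with all hCG values above all Control values. The changes of the list ran from -2.35 to 0.67, so its members did not share a direction.

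Of the JAK-STAT3 components 0 of 7 were called by limma, with 1 at an unadjusted p under 0.05 (24.1% of all tested genes). That was Jak2, a kinase of many cytokine receptors, with a change of 0.57 (SE 0.15, adjusted p = 0.0875), while Tyk2 had one of -0.15 (adjusted p = 0.365). Of 8 tested STAT3 feedback and target genes 1 fell and 0 rose, with a median of 0.01. Lbp, an acute phase protein that binds lipopolysaccharide, stood at 4.81, 5.20 and 5.35 in the Control group and 3.43, 2.89 and 2.69 in the hCG group, with no overlap. Its change was -2.12 (SE 0.22, limma adjusted p = 0.0289), whereas that of Cebpd was 0.24 (SE 0.09, adjusted p = 0.187). The hCG values of Lbp were dim, the lowest just above the filter level, so the size of its change is uncertain. Socs3, the feedback inhibitor of this route, was below the filter level.

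Factors that mark cytokine mRNAs for decay or stability had 0 of 10 tested genes called by limma, with 3 at an unadjusted p under 0.05, beside 24.1% of all tested genes. Their median was 0.07. Zfp36l2, which binds AU-rich stretches of such mRNAs, differed by 0.37 (SE 0.08, adjusted p = 0.0711), and Hnrnpd by 0.45 (SE 0.13, adjusted p = 0.106). Values did not overlap in either gene.

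Other interleukins and relatives of Il6 were mostly dim, with 9 of the 25 on the array tested and 0 called by limma, 5 of them at an unadjusted p under 0.05 (24.1% of all tested genes). Il33, an alarm cytokine of the interleukin-1 family held in the nucleus, was at 8.49, 8.47 and 7.19 in Control spheres and 5.94, 6.59 and 6.32 in hCG spheres. These groups did not overlap, and the change was -1.77 (SE 0.37, limma adjusted p = 0.0582). It passed without Control 7. Il16, which attracts CD4+ cells, had a change of 0.71 (SE 0.15, adjusted p = 0.0639).

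**Figure D4:**
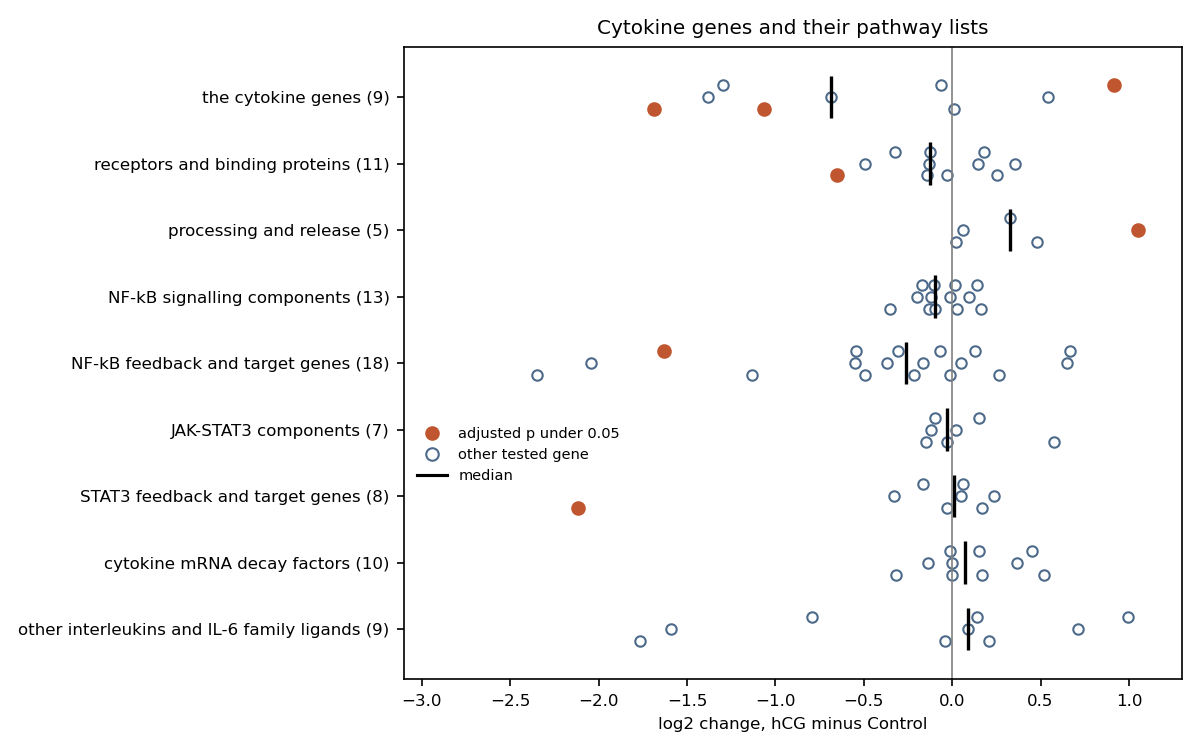
Log2 change (hCG minus Control) of each tested gene of the cytokines and of 8 pathway lists, with the number of tested genes in parentheses, a black line at each median and filled points for an adjusted p under 0.05. The medians of the pathway lists lie between -0.26 and 0.33, and that of the cytokine genes at -0.69.

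Markers of the cells that could make or hold these cytokines were read beside them. In bulk RNA, fewer cells of a type and less RNA per cell cannot be told apart. Of 14 macrophage markers on the array 7 were above the filter level, with 4 changes above 0 and 3 below. Their mean log2 level ran from 4.22 to 4.86 on Control and from 4.16 to 4.68 on hCG arrays, so the ranges overlapped, and Cd163, Mrc1, C1qa, C1qb, C1qc, Itgam and Csf1r were below the filter. Neutrophil markers had 3 of 5 above the filter, all with changes below 0, and 0 of the 3 passed limma's test. Their mean levels ran from 3.10 to 4.46 on Control and from 2.67 to 3.10 on hCG arrays. These ranges overlapped slightly (lowest Control 3.095, highest hCG 3.104). S100a9 and Camp passed the filter through the Control group alone, with hCG means of 1.94 and 2.62, so the size of their changes is uncertain. The neutrophil genes Csf3r and Cxcr2 were below the filter level.

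Luminal progenitor markers, of which 5 of 7 were above the filter (Kit and Elf5 were not), had all 5 changes below 0 and mean levels from 7.10 to 8.20 on Control and from 5.62 to 6.95 on hCG arrays. Lbp is on this list and on that of STAT3 targets. Lbp alone of the 5 passed the test. Without Lbp, a choice made after seeing the data, the mean of the other 4 ran from 7.68 to 8.91 on Control and from 6.35 to 7.84 on hCG arrays, so the groups overlapped, as they did in Lcn2, Csn3 and Aldh1a3 singly. Of 8 tested luminal markers 6 changes lay below 0, and Cd24 fell (-1.425, limma adjusted p = 0.0289). Mean luminal levels overlapped, from 5.55 to 7.00 on Control and from 5.70 to 6.01 on hCG arrays. Of 7 tested fibroblast markers 5 changes lay above 0 and 2 below. Lum rose (1.13, limma adjusted p = 0.0373) and Dpt fell (-0.99, adjusted p = 0.0375). Mean fibroblast levels ran from 9.80 to 9.87 on Control and from 9.915 to 10.07 on hCG arrays. The part of all these markers in the lower cytokine levels was not tested. Of 6 tested endothelial markers 3 rose (Emcn, Sox17 and Esam), while Pecam1, Kdr and Tek did not pass. Sox17 passed the filter through the hCG group alone, with a Control mean of 2.23 under its level, so the size of its change is uncertain. All 6 changes lay above 0, and mean levels ran from 3.50 to 4.44 on Control and from 5.20 to 5.34 on hCG arrays. Of 6 tested basal and myoepithelial markers limma called 0, with 2 at an unadjusted p under 0.05 and overlapping groups in 4. Their mean levels ran from 4.19 to 5.18 and from 5.23 to 5.47. Their part in the higher levels of Tnf and Il18 was not tested.

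**Figure D5:**
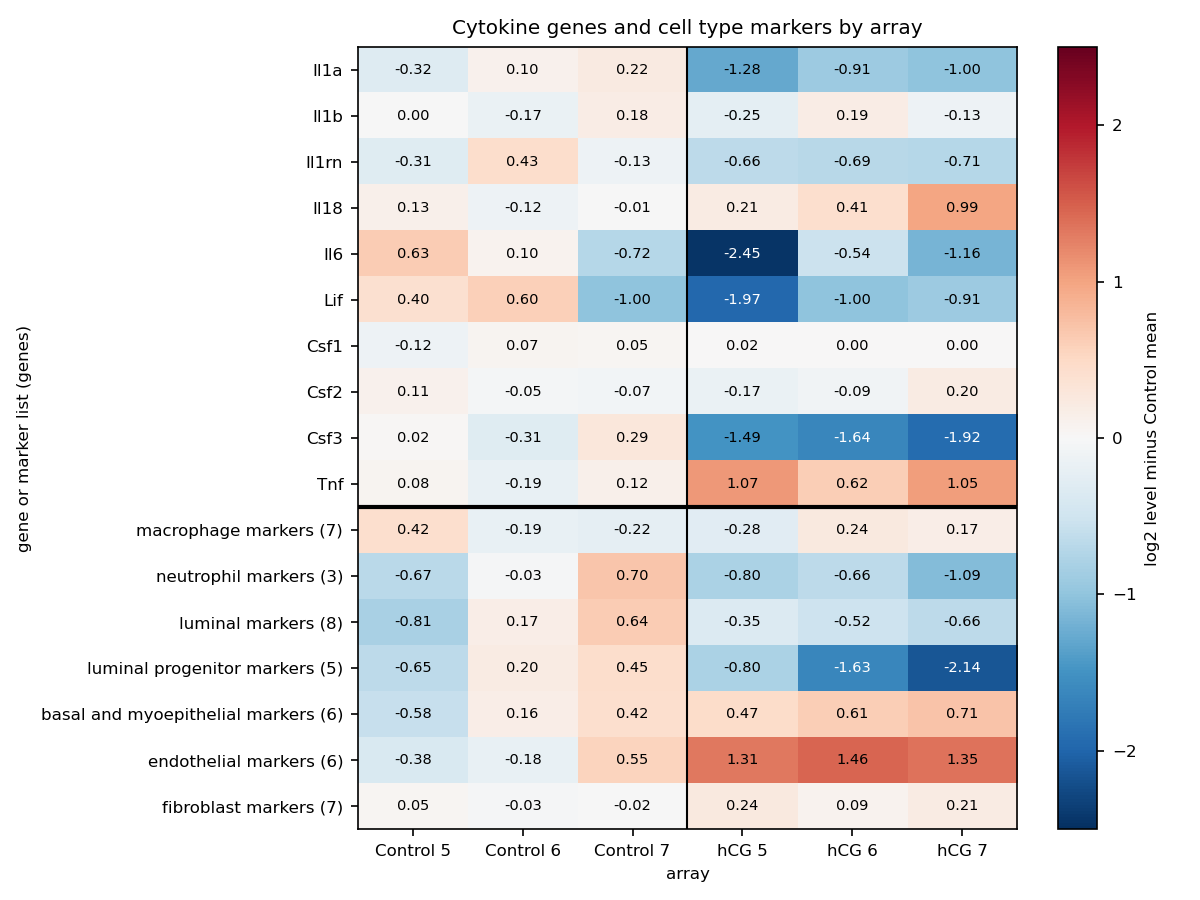
Log2 level of each cytokine gene on each array, and mean level of each marker list, relative to its Control mean (colour and printed value); lists with at least 3 tested genes are shown. Csf3, Il1a, Il1rn, Il6 and Lif are negative on all hCG arrays, as are luminal, luminal progenitor and neutrophil markers. Tnf, Il18 and the basal and myoepithelial, endothelial and fibroblast markers are positive there. Csf1 is nearly level, and Il1b, Csf2 and macrophage markers take both signs.

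For the 3 cytokine genes that passed, the genes of most similar pattern were found by Pearson correlation over the 6 arrays among all tested genes, as a description. For Csf3 these were Vhl (r = 0.998), Abca2, Tcta, Dgat2 and Plxna4 (0.991). Their log2 changes, from -0.42 to -0.27, were small beside that of Csf3. For Il1a they were Tmem86a (0.996), Tgfa, Phf23, Galnt10 and Rangap1 (0.989), with changes from -0.62 to -0.23. For the brighter Tnf probe set they were Ckap5 (0.998), Ccdc106, Nucks1, Acp5 and Nt5c3a (0.994), with changes from 0.21 to 0.75. Of these 15 genes, Acp5 alone passed the test (adjusted p = 0.0439). The points of each correlation are 6 arrays, which fall into the same 2 groups that stand apart in Csf3, Il1a and Tnf.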

How the data were processed

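RNA of mammospheres was measured on 6 arrays, 3 Control and 3 hCG, after amplification in 2 cycles (per the labels' protocols). They are the authors' deposited log2 expression values for 31099 probe sets; RMA, MAS5 and limma are named without roles in the submitters' processing notes. The log base and normalization are not given in the sources used here, and log2 was inferred from the range (0.74 to 13.1) and near-equal distributions. Near-equal distributions hide a shift of most genes at once, and there are no detection calls.

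After leaving out 57 control probe sets and the dimmest 40% by mean over all arrays, 18625 remained. Probe sets naming 1 gene (20826 of 31042; 436 named several) were used, with 20758 symbols updated through a RefSeq gene table, and the brightest stood for each of 10424 genes. Groups were compared with lmFit and eBayes (limma 3.58.1, R 4.3.3), two-sided, with Benjamini-Hochberg adjustment over these genes and 4 residual degrees of freedom. Values of other probe sets were adjusted over probe sets, and those of dim ones came from the fit without a filter. The test was checked on simulated data. Named pathway genes are those called in each list, or the 2 of smallest p where fewer than 2 were called. Members and lists were chosen with earlier results of these data known. Groups and array numbers came from sample titles.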

Additional observations from a re-analysis of the deposited data

How the results depend on the processing

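With 1 array left out, limma called 0 to 584 genes, 0 to 4 of the cytokine genes and 0 to 5 of the pathway genes (190, 3 and 4 with all arrays), and 5 to 7 cytokine genes had no overlap. The change of Csf1 then lay between -0.052 and 0.045 and that of Il1b between -0.19 and 0.031, so neither has a settled sign; averaging the probe sets of each gene put Csf1 at -0.083. Under a filter on the dimmest 60%, Csf1, Il6 and Tnf alone of the cytokine genes remained to be tested, so that 1 cytokine gene was called, 1 had no overlap and 1 pathway gene was called. Array weights called 2663 genes, with 7 cytokine and 27 pathway genes, and a variance trend 306 genes. At an adjusted p under 0.10, chosen after seeing the data, 844 genes and 13 pathway genes passed, and adjusted over probe sets 177 genes and the same 3 cytokine genes. No filter, median centring and quantile normalization each called Csf3, Il1a and Tnf. Deviations of same-numbered arrays correlated at -0.09, 0.13 and 0.00, and those of unlike-numbered Control and hCG arrays at values from -0.19 to 0.18. So few arrays cannot settle whether the numbers pair the samples. With the array number as a replicate block 118 genes were called, Csf3, Il1a and Tnf among them. Of the pathway genes Tnfrsf1b lost its call, Tslp gained one, and Casp4, Lbp and Ptges kept theirs. The number of arrays and dim signal, in Il1a, Il1b, Il1rn, Il18, Lif, Csf2, Ptges and the second Tnf probe set, limit these results. The dim hCG levels of Csf3 and Lbp limit how well the size of their changes is known.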

Other observations

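Several genes had their arrays in the same order within each group as Il6, highest on Control 5 and lowest on Control 7, and highest on hCG 6 and lowest on hCG 5. This was noticed after the values were seen and is given without a test. Among the 18 tested NF-kB feedback and target genes it held for 4 (22.2%), against 5.64% of all tested genes: the prostaglandin synthase gene Ptgs2 and the chemokine genes Cxcl1, Cxcl2 and Ccl20. Ccl20 was at 8.57, 7.55 and 6.56 on Control 5, 6 and 7 and at 4.39, 6.27 and 4.98 on hCG 5, 6 and 7, a log2 change of -2.35 (SE 0.62, limma adjusted p = 0.0933) with no overlap. Cxcl2 had means of 8.77 ± 0.95 (SD, n = 3) in Control and 6.73 ± 1.28 (SD, n = 3) in hCG spheres, with overlap, a change of -2.05 (SE 0.71, adjusted p = 0.148). Ptgs2 was at 11.10, 10.60 and 9.87 and at 8.89, 9.94 and 9.35, a change of -1.13 (SE 0.36, adjusted p = 0.132). The receptor gene Il1r1 and the cytokine genes Il33 and Clcf1 shared this order, and none of the other 8 tested cytokine genes of the main set did. Of the 13 NF-kB signalling components 0 did.

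Il11, a relative of Il6 that signals through gp130, was at 8.45, 8.45 and 6.81 on Control 5, 6 and 7 and at 5.19, 7.29 and 6.46 on hCG 5, 6 and 7, with a change of -1.59 (SE 0.63, limma adjusted p = 0.185). As in Il6 and Lif, Control 7 was the lowest Control array and hCG 5 the lowest of all. Tslp, an epithelial cytokine, went the other way, at 4.95, 4.31 and 4.65 and at 6.05, 5.22 and 5.62, a change of 0.99 (SE 0.24, adjusted p = 0.0809) with no overlap. Il11 and Tslp were singled out after their values were seen.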
